A study of Mus musculus with 12 samples.

Results

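*Il2* and *Il21* encode cytokines of the common gamma chain family and lie next to each other on mouse chromosome 3. The members were taken by gene name, 2 of the 24439 genes listed in each library. RNA was sequenced from 12 cultures of CD4 T blast cells, which are dividing T cells grown from splenic CD4 T cells of C42 mice. C42 is labelled a C57BL/6 line, was back-crossed to C57BL/6J by the methods, and carries a fragment of the human IL3/CSF2 locus, so every culture compared here carries that transgene. All cultures received the lectin concanavalin A at 2 µg/ml for 40 h and then IL-2 at 50 U/ml, for 30 h by the methods and 2 days by the labels. Cells were then kept for 16 h with IL-2 (TB IL-2) or without it (TB IL-2nil). The stimulated cultures (TB+ IL-2 and TB+ IL-2nil) received 20 ng/ml of the phorbol ester PMA and 2 µM of the calcium ionophore A23187 (PMA/I) for 2 h. There were 3 libraries a group. The labels do not say whether replicates came from separate animals, so the P-values measure only the spread between these cultures.

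IL-2 is made by T cells shortly after the T cell receptor is engaged and acts on the same cells as a growth factor through IL-2Rα, IL-2Rβ and the common gamma chain. IL-21 is made mainly by activated CD4 T cells, above all follicular helper and Th17 cells, and acts on B cells, T cells and NK cells through IL-21R and the same gamma chain. Both genes need calcium and NFAT for transcription, which PMA/I supplies without the receptor. The IL-2 added to the cultures was a recombinant protein and contributes no *Il2* RNA.

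Before any result, 2 libraries went against their labels. The libraries labelled TB IL-2nil replicate 3 and TB+ IL-2 replicate 3 are used here in each other's group, where the study's own list of differentially expressed genes has them. This was checked without *Il2* and *Il21*. For this check the libraries were quantile-normalized, which gives each the same set of values, in the form that met the list best. The main comparisons below use upper-quartile scaling instead, which the methods name. Over 1389 other genes of that list, each of its 12 columns was met within 0.1% at 100% of genes by a single quantile-normalized library. For these 2 columns that library carried the other label, and the library of the same label met 0.072% of genes. The values with the libraries as labelled are given beside each comparison.

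Levels are in TPM, a transcript's share of a library corrected for its length, computed from the deposited FPKM values and scaled between libraries by the upper quartile. Levels of different genes can therefore be set side by side. FPKM sums were between 193815 and 420487 a library and relative depths, estimated from the smallest values, between 0.409 and 1.25. Summed T cell markers (*Cd3d*, *Cd3e*, *Cd3g*, *Cd4*, *Cd5*) were between 1023 and 1918 TPM in the 12 libraries. CD8 markers summed to between 6.91 and 31.9 TPM, myeloid markers to at most 4.88 TPM and NK cell markers to at most 0.303 TPM, with *Ncr1* at 0 throughout. The 5 regulatory T cell markers summed to between 178.3 and 380.5 TPM, most of it *Tnfrsf18* (group means 122.7 to 250.4 TPM) and *Ctla4* (20.3 to 105.4 TPM), while the defining marker *Foxp3* had group means of at most 1.05 TPM. Before PMA/I *Lrrc32* was called higher with IL-2 (3.63, adjusted P = 0.000275) and *Ctla4* lower (-2.20, adjusted P = 0.0186) on the log2 scale by the test described below.

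In the mm9 build, annotated by GENCODE M1, *Il2* spans chr3:37019445-37024881 and *Il21* spans chr3:37121681-37131540, both on the minus strand and both protein coding. The longest transcript of *Il2* has 4 exons and that of *Il21* has 5. Their transcription starts are 106.7 kb apart, with 96.8 kb between the genes. The promoters are shown because both genes answered to a calcium and phorbol ester stimulus. The 300 bases from 250 before the RefSeq start (GRCm38.p6 table) to 50 after it each matched mm9 exactly at 1 place, at chr3:37024827-37025126 for *Il2* and chr3:37131509-37131808 for *Il21*. The sequences below read 5′ to 3′ on the coding strand, and capitals mark the core NFAT letters GGAAAA on either strand (TTTTCC on the other) and the TATA box letters TATAAA.
Il2: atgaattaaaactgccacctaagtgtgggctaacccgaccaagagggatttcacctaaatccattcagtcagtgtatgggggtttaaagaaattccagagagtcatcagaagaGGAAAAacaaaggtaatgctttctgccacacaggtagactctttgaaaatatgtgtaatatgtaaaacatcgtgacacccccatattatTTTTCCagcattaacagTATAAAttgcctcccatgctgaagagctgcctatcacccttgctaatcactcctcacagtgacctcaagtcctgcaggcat
Il21: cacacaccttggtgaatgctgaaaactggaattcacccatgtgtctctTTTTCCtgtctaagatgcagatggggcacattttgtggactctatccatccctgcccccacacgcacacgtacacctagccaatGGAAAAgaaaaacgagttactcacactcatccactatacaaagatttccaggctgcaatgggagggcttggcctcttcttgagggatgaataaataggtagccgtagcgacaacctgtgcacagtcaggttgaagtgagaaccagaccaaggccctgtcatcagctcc
Both promoters held 2 NFAT cores, at -137 and -48 in *Il2* and at -202 and -118 in *Il21*, counted to the first base from the start. At least 1 such core is in 23.4% of 32851 mouse promoters of the same length, and 2 or more are in 3.62%. TATAAA was found in *Il2*, at -31, and not in *Il21*, and is in 8.32% of promoters. Each window had 1 match to a loose form of the NF-kB motif, which 50.8% of promoters hold. Neither had the AP-1 letters TGANTCA, the CRE letters TGACGTCA, the STAT letters TTCNNNGAA, the RUNX letters TGTGGT or the octamer ATGCAAAT on either strand. Only these fixed letters were searched, with N as any base, so binding sites that depart from them were not looked for.

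Before PMA/I both genes were near the lower limit of the data. *Il2* had 3.12, 0.207 and 0 TPM in replicates 1, 2 and 3 of TB IL-2, and 4.17, 3.88 and 0.997 TPM in those of TB IL-2nil. The groups overlapped, since replicate 1 of TB IL-2 was above replicate 3 of TB IL-2nil. *Il21* had 0.153, 0 and 0.0363 TPM in TB IL-2 and 0.132, 0.128 and 0.0446 TPM in TB IL-2nil. All 6 resting values of *Il21* were under 1 TPM and the groups overlapped. To show how few reads stand behind these levels, each FPKM value was multiplied by the relative depth of its library and divided by the smallest such value of the gene. In these steps *Il21* had 5, 0 and 1 in TB IL-2 and 3, 1 and 1 in TB IL-2nil, to the nearest whole number. The steps of *Il2* were 27.2, 1 and 0 in TB IL-2 and 25.3, 8.12 and 5.99 in TB IL-2nil. No order of the resting groups can be read from so few steps of *Il21*, while a single TB IL-2 library held nearly all the resting *Il2* of that group.

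After PMA/I both genes were among the most induced of all genes. *Il2* had 7657, 6315 and 3539 TPM in replicates 1, 2 and 3 of TB+ IL-2, and 8949, 7651 and 4116 TPM in those of TB+ IL-2nil. Replicate 3 was lowest in both groups, and the groups overlapped. *Il2* then ranked between the 5th and the 25th most abundant of all genes listed and took 0.372% to 0.785% of the unscaled TPM of a library. The ranks and the total include 1281 symbols of short non-coding RNAs, whose share of the total is not given here. *Il21* had 155.8, 166.4 and 96.5 TPM in TB+ IL-2 and 123.5, 100.4 and 150.2 TPM in TB+ IL-2nil. Its rank by level was between 760 and 1255, and the groups overlapped. Every stimulated library was above every resting one for both genes. In bulk RNA, more cells that transcribe a gene and more RNA per cell cannot be told apart.

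**Figure D1:**
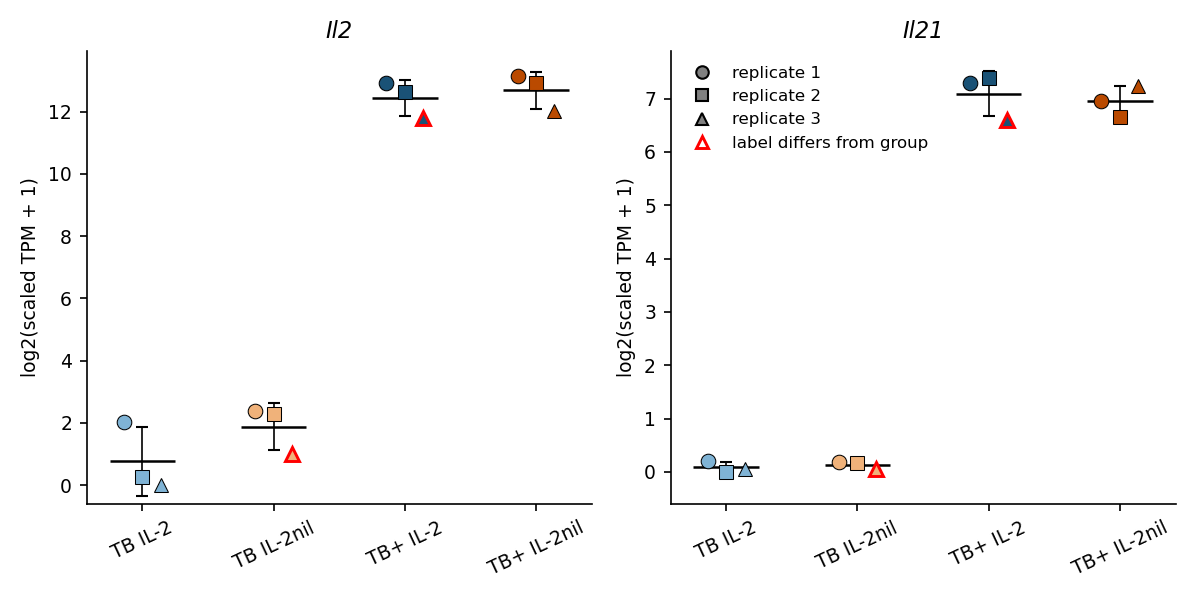
Levels of *Il2* (left) and *Il21* (right) as log2(scaled TPM + 1), on separate axes, in 4 groups of 3 libraries, with the mean (line) and SD (bar). Symbols give the replicate and red outlines the 2 libraries whose label differs from the group. Both genes are high in all 6 stimulated libraries, up to 8949 TPM for *Il2* and 166.4 TPM for *Il21*, and at most 4.17 and 0.153 TPM in the 6 resting ones.

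The first question was how strongly PMA/I induced each gene where IL-2 had been kept. Differences are on the log2(TPM + 1) scale, which understates changes from a level near 0, and were tested with limma over 12442 genes. A gene was called when it differed by over 3-fold and its P, adjusted by Benjamini-Hochberg, was under 0.05. *Il2* rose from 1.11 ± 1.74 to 5837 ± 2100 TPM (SD, n = 3), a log2 difference of 11.67 (SE 0.56, 95% interval 10.44 to 12.90, adjusted P = 2.01e-07). This was the 2nd largest of all 12442 differences, closely after *Il3*, another T cell cytokine gene, at 11.67. *Il21* rose from 0.0632 ± 0.0801 to 139.6 ± 37.7 TPM (SD, n = 3), a log2 difference of 7.01 (SE 0.22, 95% interval 6.54 to 7.48, adjusted P = 7.08e-09), which ranked 21st. Both members were thus called higher, where 3.94% of all genes tested were and 3.1% were called lower. With the libraries as labelled neither was called, where 0.169% of genes were called higher and 0.185% lower. The log2 differences were then 8.07 for *Il2* (SE 3.13, adjusted P = 0.283) and 4.83 for *Il21* (SE 2.00, adjusted P = 0.317).

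After 16 h without IL-2 PMA/I again induced both genes. *Il2* rose from 3.02 ± 1.75 to 6905 ± 2501 TPM (SD, n = 3), a log2 difference of 10.79 (SE 0.56, 95% interval 9.56 to 12.03, adjusted P = 2.56e-07), again the 2nd largest, after *Ccl4* at 10.82, a chemokine gene. *Il21* rose from 0.101 ± 0.0493 to 124.7 ± 24.9 TPM (SD, n = 3), a log2 difference of 6.82 (SE 0.22, 95% interval 6.34 to 7.29, adjusted P = 6.43e-09), which ranked 28th. Both were called higher, where 7.78% of genes tested were and 10.7% were called lower. As labelled neither was called, where 0.876% of genes were called higher and 1.17% lower, with log2 differences of 7.20 for *Il2* (adjusted P = 0.144) and 4.63 for *Il21* (adjusted P = 0.142). With both libraries left out whose label and placement differ, the differences were 11.98 and 10.34 for *Il2* with and without IL-2 and 7.24 and 6.76 for *Il21*, all called.

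**Figure D2:**
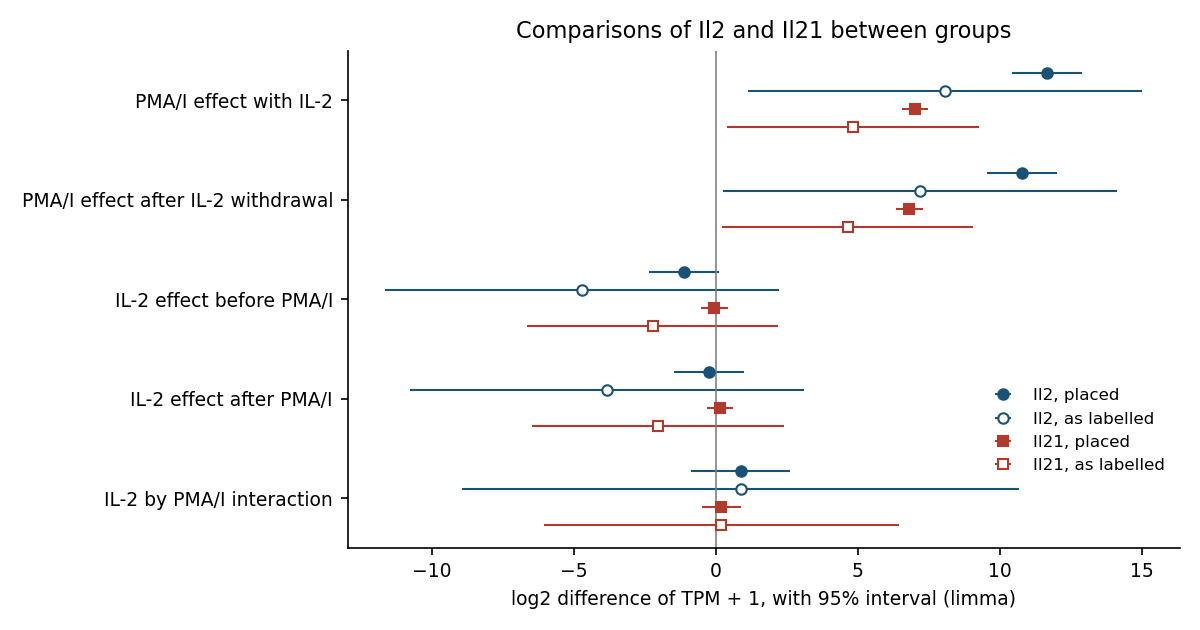
Log2 differences of *Il2* (circles) and *Il21* (squares) with 95% intervals from limma in the 5 comparisons, with the 2 libraries placed (filled) and as labelled (open). As placed, the PMA/I effects lie between 6.82 and 11.67 and the other intervals include 0. As labelled, the intervals are several times wider.

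Whether IL-2 changed the size of the response was tested as the interaction, the PMA/I effect with IL-2 minus that after withdrawal. For *Il2* it was 0.87 (SE 0.79, 95% interval -0.87 to 2.62, adjusted P = 0.54) and for *Il21* 0.19 (SE 0.31, 95% interval -0.48 to 0.87, adjusted P = 0.739). Neither passed, where 1.57% of genes passed with a positive and 2.66% with a negative interaction at an adjusted P under 0.05. With the replicate number as a block, 760 positive and 718 negative interactions passed instead of 195 and 331, and those of *Il2* (adjusted P = 0.172) and *Il21* (adjusted P = 0.686) did not. The 95% intervals with the block were -0.04 to 1.79 for *Il2* (SE 0.41) and -0.50 to 0.88 for *Il21* (SE 0.31). The *Il2* interaction moved with the processing, from 0.49 without TB IL-2 replicate 3 to 1.48 without TB IL-2 replicate 1, and was 1.64 without the 2 libraries whose label and placement differ, 1.53 with quantile normalization and 2.28 at a pseudocount of 0.1, at adjusted P of 0.768, 0.189, 0.312, 0.272 and 0.422. Without the block the interval for *Il21* includes changes of up to 0.87 in log2, and that for *Il2* is wider. As labelled the interactions were the same, with SEs of 4.43 and 2.83, and 0 of 12442 genes passed in limma, where 413 had an unadjusted P under 0.05 and 2875 as placed.

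In resting cells the effect of IL-2 was taken as TB IL-2 minus TB IL-2nil. *Il2* was at 1.11 ± 1.74 against 3.02 ± 1.75 TPM (SD, n = 3), a log2 difference of -1.11 (SE 0.56, 95% interval -2.35 to 0.12, adjusted P = 0.136). *Il21* differed by -0.05 (SE 0.22, 95% interval -0.53 to 0.42, adjusted P = 0.875). Neither was called, where 4.69% of genes were called higher with IL-2 and 2.73% lower. By replicate number, *Il2* was higher without IL-2 in 3 of 3 pairs. With the replicate number as a block the adjusted P of *Il2* was 0.0105 (log2 -1.11, SE 0.29, 95% interval -1.76 to -0.47), and it stayed uncalled because its 2.16-fold difference was under 3-fold. That fold is set in part by the pseudocount of 1 TPM, which is as large as the levels compared. At a pseudocount of 0.1 the log2 difference without the block was -2.52 (adjusted P = 0.0874), over 3-fold and not past the adjusted P. Without TB IL-2 replicate 1, the library with 3.12 TPM, the difference was -1.72 (adjusted P = 0.0179) and called. As labelled it was -4.71 for *Il2* (adjusted P = 0.6) and -2.23 for *Il21* (adjusted P = 0.713), with neither called, where 0.0563% of genes were called higher and 0.0402% lower. B cell markers moved the same way as resting *Il2*. All 3 (*Cd79a*, *Cd79b*, *Ms4a1*) were lower with IL-2 at an adjusted P under 0.05, and summed to between 5.05 and 9.74 TPM in TB IL-2 and between 20.4 and 26.6 TPM in TB IL-2nil. *Cd4* moved with them, from 134.2 TPM in TB IL-2 to 332.9 TPM in TB IL-2nil. Their part in the difference was not tested.

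In stimulated cells the effect of IL-2 was TB+ IL-2 minus TB+ IL-2nil. *Il2* was at 5837 ± 2100 against 6905 ± 2501 TPM (SD, n = 3), a log2 difference of -0.24 (SE 0.56, 95% interval -1.47 to 0.99, adjusted P = 0.801), which had the other sign without scaling between libraries (0.16) and with quantile normalization (0.58). Within replicate numbers the level without IL-2 was 1.17, 1.21 and 1.16 times that with IL-2, in replicates 1, 2 and 3. Without TB+ IL-2 replicate 3 the difference was 0.09 (adjusted P = 0.954). *Il21* was at 139.6 ± 37.7 against 124.7 ± 24.9 TPM, a log2 difference of 0.14 (SE 0.22, 95% interval -0.33 to 0.62, adjusted P = 0.684). It was higher with IL-2 in replicates 1 and 2 and lower in replicate 3, and the difference was -0.0038 without TB+ IL-2 replicate 2 and -0.0034 without TB+ IL-2nil replicate 2. Neither gene was called, where 3.21% of genes were called higher with IL-2 and 0.41% lower. As labelled the differences were -3.84 for *Il2* (adjusted P = 0.563) and -2.04 for *Il21* (adjusted P = 0.64), with neither called, where 0.104% of genes were called higher and 0.0161% lower. The intervals as placed, without a block, include a 2-fold difference for *Il2* in one direction and do not include a 2-fold difference for *Il21* in either. With the replicate number as a block the *Il2* interval was -0.89 to 0.41 (SE 0.29), which does not include a 2-fold difference in either direction.

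The level of *Il21* relative to *Il2* in the same library does not depend on scaling. After PMA/I it was 2.04%, 2.64% and 2.73% in replicates 1, 2 and 3 of TB+ IL-2, and 1.38%, 1.31% and 3.65% in those of TB+ IL-2nil. Replicate 3 of TB+ IL-2nil, with the lowest *Il2* level and the highest *Il21* level of its group, stood above all the others. The log2 ratio differed by 0.38 between the groups (exact two-sided permutation test, P = 0.4, n = 3 against 3). An exact permutation test of this design cannot go below P = 0.1, or below P = 0.2 with 1 library left out. With the libraries paired by replicate number, an exact test that flips the signs of the pair differences gave P = 0.5. Leaving out 1 library at a time gave differences from 0.12, without TB+ IL-2nil replicate 2 (exact permutation P = 0.8), to 0.86, without TB+ IL-2nil replicate 3 (exact permutation P = 0.2). In that last case every TB+ IL-2 library was above both remaining TB+ IL-2nil libraries, so P was the lowest possible. Without TB+ IL-2nil replicate 1 the difference was 0.16 (exact permutation P = 0.8), and as labelled it was 0.62 (exact permutation P = 0.3).

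**Figure D3:**
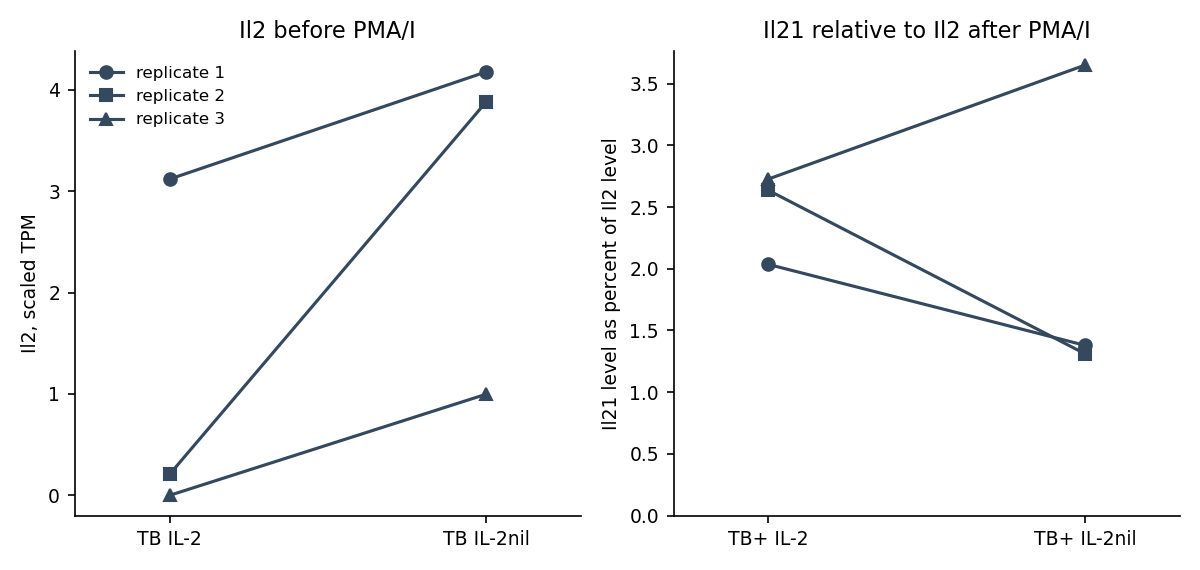
Left, *Il2* in scaled TPM before PMA/I with and without IL-2. Right, the *Il21* level as a percentage of the *Il2* level in the same library after PMA/I. Lines join libraries of the same replicate number. All 3 lines rise on the left, by 0.997 TPM in replicate 3, and on the right replicate 3 rises to 3.65% while the other two fall to 1.38% and 1.31%.

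Among the 6 common gamma chain cytokine genes, 5 were tested. *Il2*, *Il21* and *Il4*, the Th2 cytokine, were called higher after PMA/I with IL-2 (median of the 5 genes 7.01, of all genes -0.22). The same genes and *Il9*, a mast cell growth factor, were called higher after withdrawal (median 6.82, of all genes -0.38). In these comparisons 3.94% and 7.78% of all genes tested were called higher. *Il4* reached 2384 ± 937 TPM in TB+ IL-2 and 2195 ± 1058 TPM in TB+ IL-2nil, between *Il2* and *Il21* in level. *Il9* reached at most 3.47 TPM on average, *Il15* stayed under 1 TPM on average in every group, and *Il7*, a cytokine of stromal cells, was not over 1 TPM in any library. None of the 5 was called for the effect of IL-2 or the interaction. As labelled, no gamma chain cytokine was called in any comparison, and of 104 calls among the other genes of the lists described from here on and the neighbours, 5 were kept. The call of *Il9* was lost without scaling (adjusted P = 0.0651) and without the 2 libraries whose label and placement differ (adjusted P = 0.0608).

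Some receptor genes for these cytokines changed with IL-2. *Il2ra*, the high-affinity chain of the IL-2 receptor, was at 442.4 TPM in TB IL-2 and 71.3 TPM in TB IL-2nil, a log2 difference of 2.45 (adjusted P = 0.000476). *Il7r*, which pairs with the gamma chain to bind IL-7, was lower with IL-2 by a log2 difference of -3.54 (adjusted P = 0.000405). After PMA/I *Il2ra* was at 761.0 TPM with IL-2 and 607.2 TPM without, and its interaction was -2.13 (adjusted P = 0.0389, 0.13 without the 2 libraries whose label and placement differ and 0.148 without scaling). *Il21r*, the receptor chain for IL-21, fell by 1.52 on the log2 scale after PMA/I with IL-2 (adjusted P = 0.0041), which was under 3-fold there and over it without the 2 libraries (-1.89) or without scaling (-1.60), and had a difference of -0.62 after withdrawal (adjusted P = 0.115). The gamma chain gene *Il2rg* was at 372.9 to 707.4 TPM and was called in no comparison. Over the 8 receptor chains, 1 was called higher and 1 lower with IL-2 before PMA/I (median 0.02, of all genes -0.13), where 4.69% and 2.73% of all genes were. *Il2rb*, another chain of the IL-2 receptor, was at 450.0 TPM in TB IL-2 and 154.8 TPM in TB IL-2nil. Its difference of 1.48 (adjusted P = 0.0163) was under 3-fold, and was called without the 2 libraries whose label and placement differ (1.68, adjusted P = 0.0233). After PMA/I *Il7r* (-1.54, adjusted P = 0.0452) and *Il4ra* (-0.86, adjusted P = 0.0314), a chain of the IL-4 receptor, were lower with IL-2 but under 3-fold. The interaction of *Il7r* was 2.00, with an adjusted P of 0.121 and of 0.0189 with the replicate number as a block.

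Downstream of the receptors, JAK1 and JAK3 phosphorylate STAT proteins, of which STAT5 serves IL-2 and STAT3 serves IL-21. Of 5 genes, *Stat5a* was called higher in both PMA/I comparisons (1.63 and 2.05, both under 3-fold without scaling), where 3.94% and 7.78% of all genes were. *Jak3* and *Stat3* had differences of at most 0.15 after PMA/I and were not called. *Jak1* was lower with IL-2 before (-1.48, adjusted P = 0.0004) and after PMA/I (-0.89, adjusted P = 0.0117), and lower after PMA/I in cultures without IL-2 (-0.98, adjusted P = 0.00161), each under 3-fold. *Stat5b*, the close relative of *Stat5a*, was also lower with IL-2 before (-0.95, adjusted P = 0.00304) and after PMA/I (-0.75, adjusted P = 0.0188). The feedback genes that STAT5 and STAT3 induce differed between the cultures. *Cish* was at 166.6 TPM in TB IL-2 and 15.2 TPM in TB IL-2nil, and at 294.3 and 538.4 TPM after PMA/I. *Cish*, *Socs1* and *Socs2* were called higher with IL-2 before PMA/I (median of the 4 genes 2.38, of all genes -0.13), where 4.69% of all genes were. *Cish*, *Socs1* and *Socs3* rose after PMA/I in cultures without IL-2 (5.27, 2.62 and 2.84). For these last 3 the interaction passed, at -4.46, -3.96 and -2.45 (adjusted P = 0.0108, 0.0125 and 0.0122), though without the 2 libraries whose label and placement differ *Socs1* (adjusted P = 0.0736) and *Socs3* (adjusted P = 0.0626) did not pass. Without scaling none of the 3 passed (adjusted P = 0.0557, 0.0557 and 0.108). *Socs1* was also called lower with IL-2 after PMA/I (-1.94, adjusted P = 0.0107), and was under 3-fold there without scaling (-1.54).

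Of 14 genes for activators of *Il2* transcription, 10 were called higher and 1 lower after PMA/I with IL-2 (median 2.46). After withdrawal 11 were called higher and 2 lower (median 2.87). Of all genes tested, 3.94% were called higher and 3.1% lower with IL-2 (median -0.22), and 7.78% and 10.7% after withdrawal (median -0.38). The call of *Jun* with IL-2 was lost at a pseudocount of 0.1, without the filter and with quantile normalization (adjusted P = 0.0661, 0.0765 and 0.0668). Of the AP-1 genes, *Fos* rose by 4.31 and 7.80 and *Fosb* by 6.04 and 7.30, *Egr1* by 5.20 and 6.31, and *Rel*, the NF-kB subunit tied to *Il2*, by 5.09 and 4.66. *Nfatc1*, the NFAT gene that is itself inducible, rose by 1.62 and 1.77, and by 1.54 and 1.22, under 3-fold, without scaling. *Nfatc2*, the NFAT gene already present in resting T cells, fell by 2.57 and 2.25. Before PMA/I *Fos* was called higher with IL-2 (2.73, adjusted P = 0.0348), a call lost without the filter (adjusted P = 0.0715) and with only the libraries compared (adjusted P = 0.0725). There 2 of the 14 were higher with IL-2 at an adjusted P under 0.05 and 4 lower (median -0.24, of all genes -0.13), among them *Jund* (1.23) and, lower, *Rel* (-1.36) and *Pou2f2* (-1.44). None of the 14 was called for the effect of IL-2 after PMA/I (median -0.78, of all genes -0.04), where *Nfatc1* (-0.79) and *Rel* (-0.93) were lower with IL-2 at an adjusted P under 0.05 but under 3-fold.

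Of 9 genes for repressors of *Il2* transcription, *Egr2*, *Egr3* and *Crem* were called higher in both PMA/I comparisons (medians 0.71 and 0.23). Of all genes tested 3.94% and 7.78% were called higher there, with medians of -0.22 and -0.38. *Egr2* rose by 8.08 and 8.81 and *Egr3* by 8.84 and 8.79. The repressor genes *Ikzf3* (-2.49) and *Tob1* (-1.91) were called lower with IL-2 before PMA/I, where 2.73% of all genes were. The *Il2* difference there (-1.11) was not called, and a link to these genes was not tested. After PMA/I no gene of the list was called for the effect of IL-2. There *Ikzf3* (-1.44, adjusted P = 0.00696), *Egr2* (-0.81, adjusted P = 0.02) and *Zeb1* (-0.58, adjusted P = 0.0115) were lower with IL-2 but under 3-fold. Before PMA/I the same held for *Zeb1* (-0.63, adjusted P = 0.00382) and *Ikzf1* (-0.47, adjusted P = 0.0341). The interaction of *Tob1* passed (1.78, adjusted P = 0.0416, and 0.0824 without the 2 libraries whose label and placement differ). *Prdm1* and *Zeb1* were not called in any comparison.

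Genes typical of IL-21 producing T cells did not move as one. Of 12 genes, 11 were tested, and *Cd40lg*, *Pdcd1*, *Irf4* and *Il6st* were called higher after PMA/I with IL-2 (median 0.86). Of all genes tested 3.94% were called higher there (median -0.22). *Irf4*, a transcription factor gene used in *Il21* induction, rose by 4.92 and 6.33. *Cd40lg*, the ligand by which helper T cells act on B cells, rose by 7.23 and 6.16. The follicular helper genes *Bcl6* and *Cxcr5* were not called after PMA/I, at group means of at most 8.40 and 1.52 TPM, and *Ascl2* was not over 1 TPM in any library. *Sh2d1a* was called lower after PMA/I without IL-2 (-1.70, adjusted P = 0.00242). Before PMA/I *Bcl6* (-2.24), *Il6ra* (-2.43), *Il6st* (-1.65) and *Sh2d1a* (-1.89) were called lower with IL-2, where *Il21* was at the lower limit of the data in both groups. Of all genes tested 2.73% were called lower there. The call of *Il6ra* was lost at a pseudocount of 0.1 (adjusted P = 0.0518) and without the filter (adjusted P = 0.0848). *Bcl6* lost its call without TB IL-2 replicate 2 (adjusted P = 0.0505), and *Il6st* was under 3-fold without TB IL-2 replicate 3 (-1.53).

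The 3′ untranslated regions of both cytokine mRNAs carry the pentamer ATTTA (read as DNA), the core of AU-rich elements that shorten the life of cytokine mRNAs. The GENCODE M1 region of *Il2* is 581 nt long and has 7 pentamers, or 12 per kb, a density that 0.246% of 16681 genes reach. That of *Il21* is 2578 nt long and has 9 pentamers, or 3.49 per kb, which 14.4% of genes reach. Each has the nonamer TTATTTATT once, and 7.64% of genes have it at least once. Of 9 genes for factors that bind such elements or degrade cytokine mRNAs, *Zfp36l1* (4.49 and 4.38) and *Zc3h12a* (2.35 and 1.67) were called higher in both PMA/I comparisons. In those comparisons 3.94% and 7.78% of all genes tested were called higher. *Zfp36l1* reached 1072 TPM in TB+ IL-2 and 2010 TPM in TB+ IL-2nil. *Zfp36* was at 70.3 and 109.3 TPM there and was not called.

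Other cytokine genes were induced with *Il2* and *Il21*, and some differed with IL-2. Of 13 genes, 11 and 12 were called higher after PMA/I with and without IL-2 (medians 5.73 and 7.68). Of all genes tested 3.94% and 7.78% were, with medians of -0.22 and -0.38. *Lta* was under 3-fold with IL-2 (adjusted P = 0.021) and *Il22* was not called after withdrawal (0.77, adjusted P = 0.108). *Il5* had a difference of 2.83 with IL-2, with an adjusted P of 0.114 and of 0.016 with the replicate number as a block. For the effect of IL-2 after PMA/I, *Csf2* (1.97, adjusted P = 0.00323) and *Il22* (1.78, adjusted P = 0.00978) were called higher with IL-2, where 3.21% of all genes were. *Il3* (1.36, adjusted P = 0.0478) passed the adjusted P alone. *Il17a* also passed the adjusted P alone, in the other direction (-0.86, adjusted P = 0.0336). With the replicate number as a block *Il24* (1.69, adjusted P = 0.0278) and *Il31* (1.80, adjusted P = 0.0198) were called too. Without the 2 libraries whose label and placement differ, *Il3* (1.76, adjusted P = 0.036) and *Il31* (2.57, adjusted P = 0.0169) were called. Without scaling *Il3* (1.75), *Il24* (2.04) and *Il31* (2.20) were called, and with quantile normalization *Il3* (1.61). None of these genes was called as labelled. *Csf2* lost its call at a pseudocount of 0.1 (adjusted P = 0.102) and had the other sign as labelled (-1.27, adjusted P = 0.864), and *Il22* lost its call with only the libraries compared (adjusted P = 0.0525) and was under 3-fold without TB+ IL-2 replicate 2 (1.33) or without TB+ IL-2nil replicate 1. The median of the 13 was 0.95, against -0.24 for *Il2* and 0.14 for *Il21*. The difference between the members and these genes was not tested. *Csf2*, the gene of GM-CSF, was at 30.4%, 57.9% and 49.0% of the *Il2* level in the 3 libraries of TB+ IL-2, and at 8.16%, 9.86% and 10.8% in those of TB+ IL-2nil. This ratio was chosen after the values were seen and is given with no test.

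**Figure D4:**
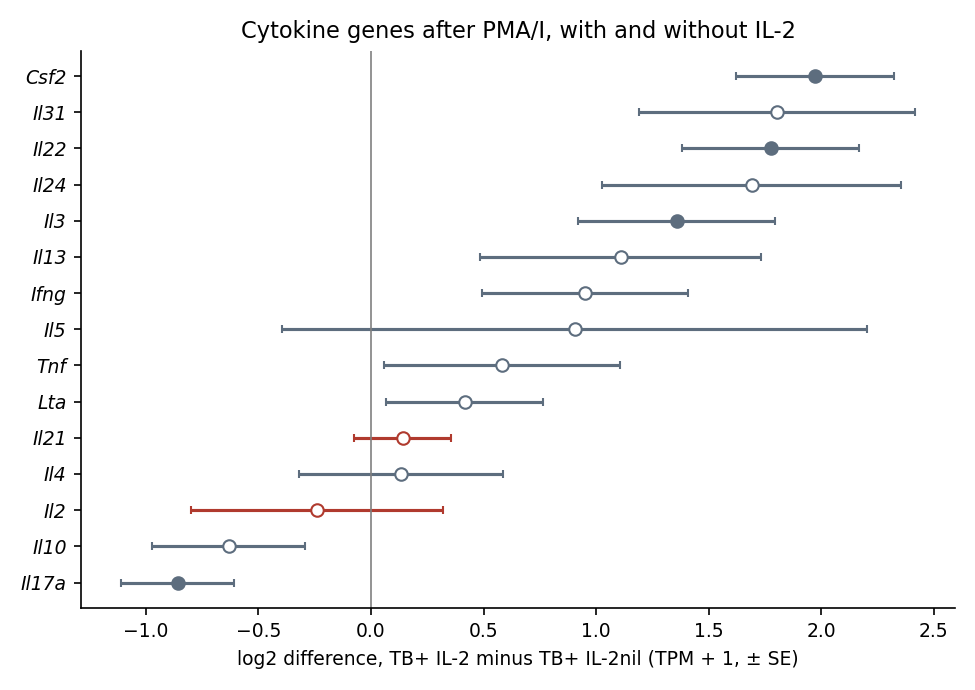
Log2 difference (TB+ IL-2 minus TB+ IL-2nil, ± SE) for *Il2* and *Il21* (red) and 13 other cytokine genes (grey) after PMA/I. Filled points have an adjusted P under 0.05 in limma. *Il21* (0.14) and *Il2* (-0.24) lie near 0, *Csf2* (1.97) is highest and *Il17a* (-0.86) lowest.

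The genes around *Il2* and *Il21* show how far the response extended. Within 500 kb of the pair, the annotation has 28 other genes, pseudogenes and transcripts, of which 11 are in the files and 8 were tested. *Spry1*, a feedback inhibitor of receptor kinase signalling 514 kb from the *Il2* start, was called higher in both PMA/I comparisons (5.83 and 9.54), and *Spata5* after withdrawal (2.55). The interaction of *Spry1* was -3.71 (adjusted P = 0.0118, and 0.0626 without the 2 libraries whose label and placement differ), where those of *Il2* and *Il21* did not pass. No closer gene was called in either PMA/I comparison in the main setting, where 3.94% and 7.78% of all genes tested were called higher. *Adad1*, whose span on the other strand overlaps *Il2* by 1402 bases, had group means of at most 0.118 TPM. *Bbs12*, *Cetn4* and *Fgf2*, about 187 kb from the *Il2* start on the side of *Il21*, had differences between -0.83 and 1.37 after PMA/I. *Cetn4*, with group means of at most 4.83 TPM, passed the adjusted P after withdrawal (0.00011). It was called there at a pseudocount of 0.1 (1.91) and with quantile normalization (1.96). The interaction of *Cetn4* passed (-1.09, adjusted P = 0.0482, and 0.18 without the 2 libraries whose label and placement differ). On the other side *4932438A13Rik* passed the adjusted P in both PMA/I comparisons under 3-fold (1.27, adjusted P = 0.00308, and 0.84, adjusted P = 0.0137), and *Nudt6*, on the side of *Il21*, was lower after withdrawal (-0.91, adjusted P = 0.00497). The annotated transcript Gm12534 lies within *Il21* on the other strand and is not analysed here. How the quantification treated strand is not given in the sources used here.

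**Figure D5:**
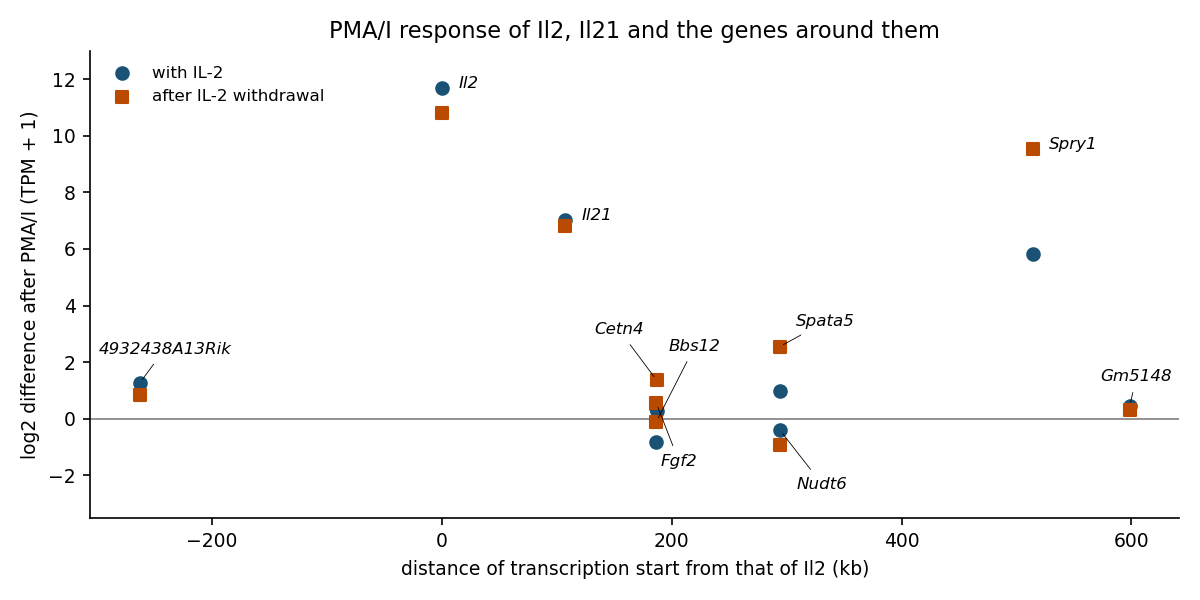
Log2 difference after PMA/I with IL-2 (circles) and after its withdrawal (squares) for *Il2*, *Il21* and the 8 neighbouring genes tested, by distance of the transcription start from that of *Il2* in kb. *Il2* (11.67 and 10.79), *Il21* (7.01 and 6.82) and *Spry1* (5.83 and 9.54) stand above the genes between and around them.

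Over the 12 libraries the genes most like *Il2* by Pearson's r of log2(TPM + 1), among 9212 genes over 10 TPM in some library, were *Ccl1* (0.9957), *Smim3* (0.9956), *Cd40lg* (0.995), *Zfp703* (0.9949) and *Nr4a3* (0.9927). Those most like *Il21* were *Tnfsf14* (0.995), *Nr4a3* (0.9948), *Egr2* (0.9946), *Olr1* (0.9926) and *Slamf7* (0.9924). *Il2* and *Il21* correlated at 0.9913, which made *Il21* the 8th gene for *Il2* and *Il2* the 10th for *Il21*. All 12 points share the split between resting and stimulated cultures, so these values are given as a description. The genes listed rose by 3.05 to 9.94 with IL-2, and the effect of IL-2 on them after PMA/I was between -0.81 and 0.79.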

How the data were processed

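Paired-end, directional, rRNA-depleted libraries were trimmed with Trimmomatic 0.32, aligned to mm9 with HISAT2 2.1.0 and quantified on RefSeq genes with StringTie 1.3.3. The deposited values are FPKM, made by the authors without scaling between libraries, whereas the methods name TPM. Read counts are not used here, so no counting intervals are given. Here FPKM was rescaled to TPM, which sums to 1000000 a library. The 12442 of 24439 genes that exceeded 1 TPM somewhere were tested, and libraries were scaled to a common 75th percentile. Log2(TPM + 1) was fitted with limma 3.58.1 (R 4.3.3) in 4 groups, with no block or trend and 8 residual degrees of freedom. Genes were called at over 3-fold and an adjusted P under 0.05, interactions at the adjusted P alone. The fit was tested on simulated data. Python 3.11.15 with scipy 1.17.1 gave the exact permutation tests.

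Samples with the same replicate number deviated together in all 18 pairs (r = 0.101 to 0.531, other pairs -0.416 to 0.171), so the numbers were taken to pair the cultures. Named genes are *Il2* and *Il21*, genes within 500 kb, the 5 genes most like each member and examples from lists of pathway genes, mainly those with the largest differences, and some that did not pass, chosen after their values were seen. Some genes of these lists are not reported here. The members and lists were chosen with earlier results of these data known. Placing 2 libraries against their labels, as in the study's own gene list, is the main setting, and the labels are an alternative. Other alternatives were a pseudocount of 0.1, no filter, no scaling, quantile normalization, short non-coding RNAs left out, limma with trend, only the libraries compared, a replicate block and each library left out.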

Additional observations from a re-analysis of the deposited data

How the results depend on the processing

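The PMA/I effects were called in every alternative that kept the 2 libraries placed or left them out (*Il2* 11.27 to 13.55 with IL-2 and 10.27 to 11.27 after withdrawal, *Il21* 6.87 to 9.81 and 6.41 to 9.29). With the libraries as labelled they kept their direction and lost the call, at 8.07 and 7.20 for *Il2* and 4.83 and 4.63 for *Il21*. With the replicate block on the labels, added after the data were seen, the same differences had an adjusted P of 0.344, 0.198, 0.384 and 0.199. The labels are the alternative's own change, since they put a stimulated library among the resting ones and the reverse. The *Il21* effect of IL-2 after PMA/I was -2.04 as labelled, with and without the block. That of *Il2* changed sign with both doubtful libraries left out (0.088), without scaling (0.16) and with quantile normalization (0.58). Leaving out 1 library at a time gave -0.58 to 0.086 for *Il2* and -0.0038 to 0.39 for *Il21* after PMA/I, and -1.72 to -0.72 for *Il2* before PMA/I, called without TB IL-2 replicate 1. None of these differences after PMA/I passed the threshold in any alternative, and the cause of the changes was not tested. The replicate block moved 1 adjusted P past 0.05, that of *Il2* before PMA/I, and changed no call of the members, though it narrowed the intervals of *Il2*. With only the libraries compared, *Il21* had no value before PMA/I because it failed the filter.

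Of 104 calls of the other genes of the lists and the neighbours, 5 were kept as labelled, 1 call had the other sign there, 95 were kept without the 2 libraries and 104 with the replicate block, which added 13. Counts over all genes moved too. After PMA/I without IL-2 they were 968 higher and 1328 lower, 638 and 2539 without scaling, which moved the median of all genes from -0.38 to -0.78, and 1208 and 2264 at a pseudocount of 0.1. Interactions numbered 195 positive and 331 negative, 760 and 718 with the replicate block, 0 and 1 without scaling and 3 and 1 without the 2 libraries. As labelled the counts were 21 and 23 for PMA/I with IL-2, 109 and 146 after withdrawal, 7 and 5 for IL-2 before and 13 and 2 after PMA/I, and 0 and 0 for the interaction. Depth limits the resting values, where 1 step is the smallest *Il21* value seen.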
